A study of Homo sapiens with 19 samples.

Results

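The long noncoding RNA genes described here carry the systematic symbol LINC followed by a number, are listed for all 19 RNA-seq samples of the series and were selected on their measured level, a mean raw read count of 50 or more over those samples. Of 1725 such symbols listed for any sample, 1028 were listed for all 19 samples and 157 passed the count minimum, out of 33031 genes of every kind listed for all samples. The samples come from 2 established lines of the human pigment cell lineage. 501Mel cells, a melanoma line, were infected with lentiviral vectors carrying a scramble hairpin (shSCR1) or a hairpin against BRG1 (shBRG1), in 3 samples each, and in another set with a scramble hairpin (shSCR2) or a hairpin against MITF (shMITF), in 2 samples each. Hermes 3A cells, which are untransformed but immortal human melanocytes, received a scramble hairpin (shSCR), shBRG1 or shMITF, in 3 samples each. All groups, the controls included, thus carry an integrated hairpin vector and went through puromycin selection, and each target was silenced with 1 hairpin in each line.

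The count minimum used the same libraries as the comparisons, so a gene could pass through the group in which it was high, and the counts of members that changed are a description. For 31 members the mean fell under 50 when 1 group was left out, for 23 of them when that group was 501Mel shBRG1. Just under the minimum lay LINC02487 with a mean of 49.6 counts, LINC01422 with 49.6 and LINC02328 with 49, and just above it LINC01088 with 51.1, LINC00681 with 52.1 and LINC00327 with 53.5. A further 7 LINC genes averaged 50 or more but were listed for 16 of the 19 samples only and are not members. By Ensembl identifier all 157 matched the GENCODE 29 annotation of GRCh38, which types 123 of them as lincRNA, 6 as transcribed pseudogenes and 2, LINC02693 and LINC03040, as protein coding. For those 8 the name is thus at odds with that annotation. The members lie on 23 chromosomes and have 428 to 27605 exonic bases (median 2811). In 48 of them some exonic bases are shared with another gene, in 19 more than 10% and in LINC01089 and LINC02603 more than 50%, and because the strand used in counting is not given in the sources used here, reads of overlapping genes cannot be told apart.

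Total counts per sample ran from 29158502 to 78857900. Expression of SMARCA4, the gene of BRG1, was 174 to 192 CPM (read counts scaled to library size with TMM factors set over all 19 samples) in shSCR1 and 34.5 to 39.4 CPM in 501Mel shBRG1, and fell likewise in Hermes 3A, with log2 fold changes of -2.36 and -2.38. MITF fell by 1.06 on the log2 scale with shMITF in 501Mel (adjusted p = 0.00143) and by 0.85 in Hermes 3A (adjusted p = 0.0194), where adjusted p-values, here and throughout, come from the quasi-likelihood test of edgeR and were adjusted by Benjamini-Hochberg over all genes tested. Against shSCR1 and shSCR2 as 1 control the first of these was -0.58 (adjusted p = 0.41), and without Hermes 3A shSCR replicate 1, 2 or 3 or shMITF replicate 3 the second had an adjusted p of 0.0691, 0.0846, 0.096 and 0.052. MITF also fell with shBRG1, by 1.55 in 501Mel. The 5 pigment genes PMEL, MLANA, TYR, TYRP1 and DCT all fell in 501Mel shBRG1, with log2 fold changes of -5.04 to -3.08, so the LINC genes were read in libraries whose melanocyte genes moved too, and the part of this in their changes was not tested. Of the markers of other cell types, PTPRC (leukocytes) and DCN (fibroblasts) reached at most 0.096 and 0.429 CPM in any sample. COL1A1 (fibroblasts), at most 9.88 CPM, rose by 2.2 in 501Mel shBRG1 (adjusted p = 2.8e-13) and by 1.71 in 501Mel shMITF (adjusted p = 0.0117). PDGFRA (fibroblasts), at most 2.01 CPM, rose by 1.96 in 501Mel shBRG1, 2.04 in Hermes 3A shBRG1 and 2.14 in Hermes 3A shMITF (adjusted p = 1.4e-05, 8.0e-07 and 0.0121). The part of these rises in the changes of the LINC genes was not tested, and KRT5, KRT14 and PECAM1 were not analysed here. The biological coefficient of variation within a group was 4.56 to 5.88% in shSCR1, both shBRG1 groups and Hermes 3A shSCR, but 16.5% in shSCR2, 17.4% in 501Mel shMITF and 28.6% in Hermes 3A shMITF. The labels do not say whether replicates were separate cultures, so p-values measure the spread between these samples, which may be technical.

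Long intergenic noncoding RNAs are transcribed by RNA polymerase II, capped, mostly spliced and polyadenylated like messenger RNA, but hold no long conserved reading frame. They tend to be less abundant and more restricted to particular cell types than messenger RNAs, which is why many are known as markers of a tissue or tumour. Some act on chromatin or on neighbouring genes, some act in trans as scaffolds or through bound microRNAs and proteins, and for many no function is known. BRG1 is an ATPase of the SWI/SNF chromatin remodelling complexes, which move and evict nucleosomes at promoters and enhancers. MITF is the basic helix-loop-helix leucine zipper factor that directs the melanocyte programme and binds E-box sequences.

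The promoters of 5 members whose changes are given below are shown. RefSeq (GRCh38.p14) gave a promoter, 250 bases before to 50 bases after the start, for 94 of the 157 members. Each is written 5′ to 3′ on the gene's own strand, and capitals mark any match, on either strand, to 5 motifs: the E-box CACGTG and the M-box core TCATGTG, which MITF can bind, GCCNNNGGC of AP-2, TGANTCA of AP-1 and the SOX-type AACAAAG. None of these motifs is contained in another. LINC00479 at chr21:41715726-41716025 (minus strand) and LINC00112 at chr21:41716186-41716485 (plus strand) start 661 bp apart on opposite strands, and both fell on BRG1 silencing in 501Mel cells.
LINC00479: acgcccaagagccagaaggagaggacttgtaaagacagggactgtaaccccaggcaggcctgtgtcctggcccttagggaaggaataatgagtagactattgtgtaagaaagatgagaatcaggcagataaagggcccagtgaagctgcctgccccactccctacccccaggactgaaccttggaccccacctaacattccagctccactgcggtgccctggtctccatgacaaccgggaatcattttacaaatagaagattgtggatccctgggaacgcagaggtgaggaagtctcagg
LINC00112: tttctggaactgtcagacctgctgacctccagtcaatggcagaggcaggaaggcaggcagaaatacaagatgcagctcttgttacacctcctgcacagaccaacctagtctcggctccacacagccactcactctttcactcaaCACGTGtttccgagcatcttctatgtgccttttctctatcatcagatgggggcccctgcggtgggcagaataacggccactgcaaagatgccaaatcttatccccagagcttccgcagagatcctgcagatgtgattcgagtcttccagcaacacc
LINC00665 at chr19:36331669-36331968 (minus strand) and LINC01134 at chr1:3900154-3900453 (plus strand) rose on BRG1 silencing in 501Mel cells, and LINC01679 at chr21:43362300-43362599 (minus strand) fell on MITF silencing in both lines.
LINC00665: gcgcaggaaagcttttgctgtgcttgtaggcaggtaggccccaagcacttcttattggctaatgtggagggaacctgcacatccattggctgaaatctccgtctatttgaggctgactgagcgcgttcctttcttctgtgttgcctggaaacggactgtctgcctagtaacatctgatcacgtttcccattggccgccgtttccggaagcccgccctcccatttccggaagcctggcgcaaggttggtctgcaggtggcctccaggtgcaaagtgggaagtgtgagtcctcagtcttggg
LINC01134: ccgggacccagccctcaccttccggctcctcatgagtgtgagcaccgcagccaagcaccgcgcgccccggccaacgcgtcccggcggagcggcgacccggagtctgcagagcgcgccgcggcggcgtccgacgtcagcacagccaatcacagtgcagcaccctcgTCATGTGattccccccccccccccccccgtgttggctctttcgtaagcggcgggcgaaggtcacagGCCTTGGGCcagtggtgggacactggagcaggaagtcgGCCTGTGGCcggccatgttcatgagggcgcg
LINC01679: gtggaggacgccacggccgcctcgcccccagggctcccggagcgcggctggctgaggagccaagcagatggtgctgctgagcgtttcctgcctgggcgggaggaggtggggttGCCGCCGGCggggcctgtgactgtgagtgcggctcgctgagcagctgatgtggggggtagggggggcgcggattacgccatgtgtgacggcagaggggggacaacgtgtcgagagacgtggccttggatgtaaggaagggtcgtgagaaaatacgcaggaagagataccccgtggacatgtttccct
The E-box of LINC00112 begins at position 145 of its window, counted from 1 at the 5′ end, and the M-box core of LINC01134 at position 166. LINC01134 also holds GCCNNNGGC at positions 232 and 270, and LINC01679 at position 114. The windows of LINC00479 and LINC00665 hold none of the motifs searched.

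In the scramble controls, 82 members averaged 1 CPM or more in both lines, 50 in 501Mel only, 17 in Hermes 3A only and 8 in neither. The summed level of all 157 was 1672 to 1753 CPM in shSCR1, 1221 to 1477 in shSCR2 and 1072 to 1097 in Hermes 3A shSCR. Per kilobase of exon, the order of the highest members in Hermes 3A could be resolved in part. LINC03048 was highest at 36.1, 37.4 and 39.6 CPM per kb in the 3 shSCR samples, from lowest to highest, and did not overlap with LINC00518 at 28.3, 28.9 and 31.4. LINC00518, whose RNA is measured together with PRAME in a skin test for melanoma, overlapped with LINC02099 at 27.3, 27.9 and 28.9. LINC02099 stood apart from LINC00520 at 25.3, 26.8 and 26.8, which overlapped with LINC00992 at 21.8, 22.4 and 26.1, and LINC02735 followed at 12.8, 13.8 and 13.9.

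In 501Mel cells the order could not be resolved, since each of the highest members overlapped with the next over the 5 scramble samples. In order of their means, LINC00520 was at 24.7, 64.4 and 66.1 CPM per kb as lowest, median and highest, LINC03048 at 18.2, 45.4 and 52.7, LINC00479 at 2.52, 62.5 and 66.2 and LINC00112 at 2.76, 58.8 and 66.9. Much of this width was between the 2 scramble groups. LINC00479 was at 140.0, 135 and 132 CPM in shSCR1 but at 6.26 and 5.33 CPM in shSCR2, and LINC00112 at 34.9, 33.5 and 30.7 against 1.91 and 1.44 CPM. Of the 157 members, 48 (30.6%) were more than 2-fold lower in shSCR2 than in shSCR1 and 14 (8.92%) more than 2-fold higher, while of all 14169 genes with a mean count of 50 or more 14.9% and 10.6% were. The 2 scramble groups belong to different sets of libraries, and what separates them was not tested.

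Between the scramble controls of the 2 lines (the mean of shSCR1 and shSCR2 against Hermes 3A shSCR), 66 members were called higher in 501Mel and 31 higher in Hermes 3A, where a call needed an adjusted p under 0.05 and more than a 2-fold difference. Of all genes tested, 20.1% were called higher in 501Mel and 18.0% higher in Hermes 3A (14.6% and 18.5% of those with a mean count of 50 or more), and the median log2 difference was 0.51 for the members and 0.08 for all genes. The counts became 75 and 28 with shSCR1 alone and 58 and 34 with shSCR2 alone. LINC00112, LINC00327, LINC00681, LINC01605 and LINC03040, called higher in 501Mel, needed the shSCR1 libraries to reach the count minimum. LINC00968, called higher in Hermes 3A, needed the Hermes 3A shSCR libraries. They had to be high in a group compared here, so these counts and the median are a description. No count without such members was made for the lines. Some members were close to absent from one line. LINC02223 was at 64.8, 74.3 and 74.5 CPM in shSCR1 and 199 and 289 CPM in shSCR2, against 0, 0 and 0.0231 CPM in Hermes 3A, where the 3 libraries together held 1 read. LINC00698 was at 57.6, 53.5 and 51 CPM in shSCR1, 44.8 and 47.1 CPM in shSCR2 and 0.092, 0.149 and 0.115 CPM in Hermes 3A, a log2 difference of 8.74 (SE 0.14, adjusted p = 4.6e-18). LINC00958 was at 21.8, 21.3 and 21.4 CPM in shSCR1, 42.8 and 50.1 CPM in shSCR2 and 0.092, 0 and 0.0923 CPM in Hermes 3A. None of these 3 overlapped between the lines. The test fitted shSCR1 and shSCR2 as separate groups. Its p-values between the lines thus measure the spread within groups and leave out the shift between the 2 scramble groups.

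LINC00499, LINC00648 and LINC01320 had no read in the 3 Hermes 3A shSCR libraries. Against the limit that a count of 0 allows (3 counts over those libraries, or 0.0249 CPM, counting error only) they were at least 142-fold, 143-fold and 132.5-fold higher in 501Mel. In the other direction LINC02735 was at 40.4, 37.2 and 40 CPM in Hermes 3A but at 0, 0.0189 and 0 CPM in shSCR1 and 0 and 0.0415 CPM in shSCR2. LINC00992 was at 25, 25.6 and 29.8 CPM in Hermes 3A against 0, 0.0755 and 0 and 0.0313 and 0 CPM in the 2 scramble groups of 501Mel, a log2 difference of -10.38 (SE 0.27, adjusted p = 1.6e-14). LINC02086, which lies 13351 bp from the start of HOXB7, was at 3.54, 3.43 and 3.6 CPM in Hermes 3A and had no read in the 5 scramble libraries of 501Mel, so it was at least 285-fold lower there. LINC02086 reached the count minimum only through Hermes 3A shBRG1, a group of the line where it is higher, so its difference is a description. LINC01505 was at 27.3, 24.8 and 28.2 CPM in Hermes 3A and at 1.36, 1.61 and 1.4 CPM in shSCR1 and 0.751 and 1.92 CPM in shSCR2, a log2 difference of -4.16 (SE 0.16, adjusted p = 9.8e-12). A line stands for 1 cell line here, and not for melanoma or melanocytes in general.

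**Figure D1:**
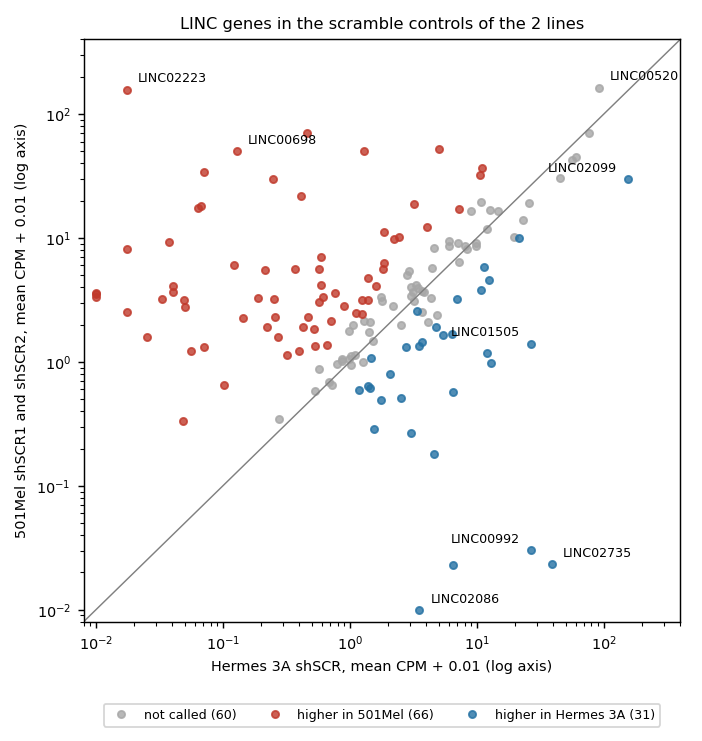
Mean level of the 157 LINC genes in the scramble controls of 501Mel (mean of the shSCR1 and shSCR2 group means, vertical axis) and Hermes 3A (horizontal axis), in CPM with 0.01 added, on log axes, with the line of equality. Red points are the 66 genes called higher in 501Mel, blue points the 31 called higher in Hermes 3A and grey points the 60 not called, and LINC02223 and LINC02735 lie at the far upper left and lower right.

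More LINC genes were called on BRG1 silencing in 501Mel cells than in each of the other 3 knockdown comparisons. Of 154 members tested, 30 were down-regulated (19.5%) and 50 up-regulated (32.5%), beside 17.4% and 21.7% of all genes tested and 20.3% and 12.4% of genes with a mean count of 50 or more. Among the 127 members whose mean stayed at 50 or more without either group compared, a count made after seeing the data, 27 fell (21.3%) and 32 rose (25.2%), beside 20.4% and 10.8% of the 13410 genes of any kind that met the same condition. The median log2 fold change was 0.42 for the members and 0.05 for all genes. In bulk libraries, fewer cells that carry an RNA and less of it per cell cannot be told apart. The 760 other long noncoding genes with that count moved likewise upwards, 12.8% called lower and 33.3% higher, whereas of 12239 protein-coding genes 21.3% were called lower and 10.5% higher. With library sizes in place of TMM scaling the median of all genes moved by 0.35 and the members' counts became 23 lower and 68 higher, so that the share of calls that were rises went from 62.5% to 74.7%.

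**Figure D2:**
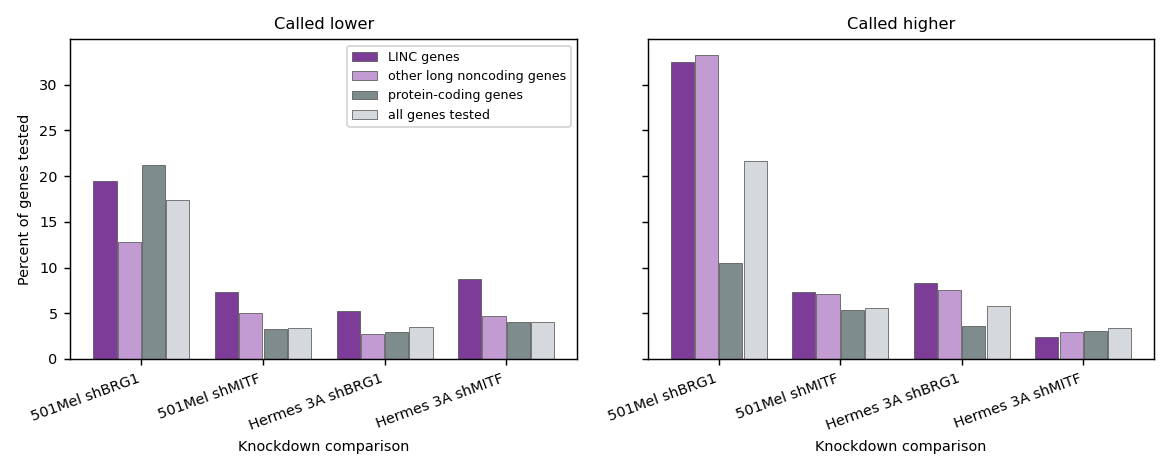
Percent of genes called lower (left) and higher (right) in each knockdown comparison, for the LINC genes, other long noncoding genes and protein-coding genes (both with a mean raw count of 50 or more) and all genes tested. In 501Mel shBRG1 32.5% of LINC genes and 33.3% of other long noncoding genes were called higher against 10.5% of protein-coding genes, and in the other 3 comparisons no bar exceeds 8.73%.

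The rise of LINC00665 was the largest of those named. LINC00665, a gene studied in liver and lung carcinoma, went from 2.52, 3.63 and 3.57 CPM in shSCR1 to 63.5, 65.2 and 63.4 CPM in shBRG1, a log2 fold change of 4.27 (SE 0.08, adjusted p = 2.7e-22), and was also higher than in shSCR2, at 9.6 and 7.11 CPM. LINC01134, which starts 79 bp from C1orf174 on the opposite strand, went from 0.84, 0.736 and 0.629 to 11.8, 13.1 and 11.7 CPM, a change of 3.98. In both genes the 3 shBRG1 samples lay far above every scramble sample of the line.
LINC01234 rose from 1.16, 1.23 and 0.915 to 15.9, 14.4 and 13.7 CPM, LINC00973 from 1.62, 1.62 and 1.49 to 21.6, 20.2 and 19.9 CPM and LINC00324, which starts 13443 bp from the mitotic kinase gene AURKB, from 0.32, 0.491 and 0.429 to 4.94, 4.13 and 4.66 CPM. Their log2 fold changes were 3.66, 3.65 and 3.41. LINC01822, with 0.3, 0.453 and 0.114 CPM in shSCR1 and 7.01, 4.88 and 5.77 CPM in shBRG1, changed by 4.19. LINC00472, described as a tumour suppressor in breast cancer, rose from 2.28, 2.49 and 2.55 to 15.2, 12.9 and 15.7 CPM, and LINC02575 from 1.32, 1.15 and 0.858 to 7.11, 6.34 and 6.49 CPM, by 2.54 and 2.5 on the log2 scale. In all 8 genes the shBRG1 samples were above every sample of both scramble groups. LINC01134, LINC00973, LINC00324, LINC01822 and LINC02575 reached the count minimum only through these 3 shBRG1 libraries, with means of 9.5 to 49.4 counts over the other 16, so they had to be high here and their changes are given as a description.

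The fall of LINC03040 was the largest of those named. LINC03040, typed as protein coding in the annotation, went from 12.6, 15.2 and 13.8 CPM to 0.149, 0.252 and 0.248 CPM, a log2 fold change of -6.05, and was at 6.44 and 2.64 CPM in shSCR2. It reached the count minimum only through the shSCR1 libraries, so this fall is a description. LINC02223, which is near absent from Hermes 3A, fell from 64.8, 74.3 and 74.5 to 8.22, 7.01 and 7.35 CPM, a change of -3.29 (SE 0.07, adjusted p = 8.9e-22). LINC03048, the highest member per kb in Hermes 3A, fell from 92.6, 107 and 107 to 12.7, 11 and 10.4 CPM in 501Mel, by 3.22 on the log2 scale. In these 3 genes every shBRG1 sample was below every scramble sample of the line.
LINC01531 fell from 53.3, 71.8 and 70.5 to 8.12, 7.75 and 8.03 CPM, a change of -3.08 (SE 0.1, adjusted p = 2.3e-13), and 10.2% of its exonic bases are shared with another gene. LINC00520, among the highest members per kb in 501Mel, fell from 224, 230.0 and 227 to 76, 66.9 and 70 CPM, a change of -1.73 (SE 0.05, adjusted p = 2.0e-19), and was at 85.8 and 114 CPM in shSCR2. The shBRG1 samples were below both scramble groups here too, and the fall against shSCR2 was the smaller one.

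The 3 pairs of members that start within 1 kb of each other on opposite strands without overlapping were compared next, a choice made after the values were seen. LINC02099 (ENSG00000253490, chr8:29748309-29798492, plus strand, GRCh38) and LINC00589 (ENSG00000251191, chr8:29673922-29748109, minus strand) start 200 bp apart, share no exonic bases with another gene in the annotation and were the only members called in all 4 knockdown comparisons. In 501Mel, LINC02099 was at 39.6, 42.7 and 41.7 CPM in shSCR1 and 3.48, 2.53 and 2.65 CPM in shBRG1, and at 20 and 16.4 CPM in shSCR2 and 4.1 and 4.73 CPM in shMITF. In Hermes 3A it was at 152, 155 and 160.3 CPM in shSCR, 54.6, 58.4 and 54.2 CPM in shBRG1 and 33.4, 34.8 and 18.5 CPM in shMITF. Each silenced group was below its control without overlap, and the log2 fold changes were -3.88 (SE 0.08, adjusted p = 1.6e-21), -2.03 (SE 0.23, adjusted p = 0.000902), -1.5 (SE 0.04, adjusted p = 3.2e-21) and -2.4 (SE 0.23, adjusted p = 0.000754) in that order.
LINC00589 was at 17.7, 20.5 and 20.2 CPM in shSCR1, 1.41, 1.06 and 1.16 CPM in 501Mel shBRG1, 8.82 and 7.7 CPM in shSCR2 and 1.13 and 1.22 CPM in 501Mel shMITF. In Hermes 3A it was at 22.1, 22 and 25.5, 5.36, 6.38 and 6.05 and 4.11, 9.07 and 4.87 CPM in shSCR, shBRG1 and shMITF. Its log2 fold changes were -4.05, -2.8, -1.98 and -1.92 in the same order, again without overlap. The members of this pair differed in their levels between the lines: LINC02099 was higher in Hermes 3A, with a log2 difference of -2.48 (SE 0.07, adjusted p = 4.5e-15), while that of LINC00589 was -0.84 (SE 0.09, adjusted p = 2.3e-07) and under 2-fold.

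LINC00479 (ENSG00000236384, chr21:41711520-41715775, minus strand, GRCh38) and LINC00112 (ENSG00000232401, chr21:41716436-41717580, plus strand), whose promoters are printed above, fell from 140.0, 135 and 132 to 5.22, 3.81 and 4.95 CPM and from 34.9, 33.5 and 30.7 to 1.06, 0.755 and 1.03 CPM in 501Mel shBRG1. Their log2 fold changes were -4.92 (SE 0.08, adjusted p = 5.3e-24) and -5.18, the second a description because LINC00112 reached the count minimum only through shSCR1. Since they were at 6.26 and 5.33 and at 1.91 and 1.44 CPM in shSCR2, the size of these falls depends on the scramble group: every shBRG1 sample was still below every shSCR2 sample, but by far less. With both scramble groups pooled their log2 fold changes were -4.17 and -4.43 (adjusted p = 0.0222 for LINC00479). With shMITF their log2 fold changes were -0.63 and -1.11 (adjusted p = 0.147 and 0.0921), and neither was called. In the third pair, LINC00174 and LINC03011 with starts 140 bp apart, the members did not move together in 501Mel shBRG1, where LINC00174 changed by 0.35 and LINC03011 by -1.06, while LINC00174 rose with shMITF in 501Mel, by 1.05.

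**Figure D3:**
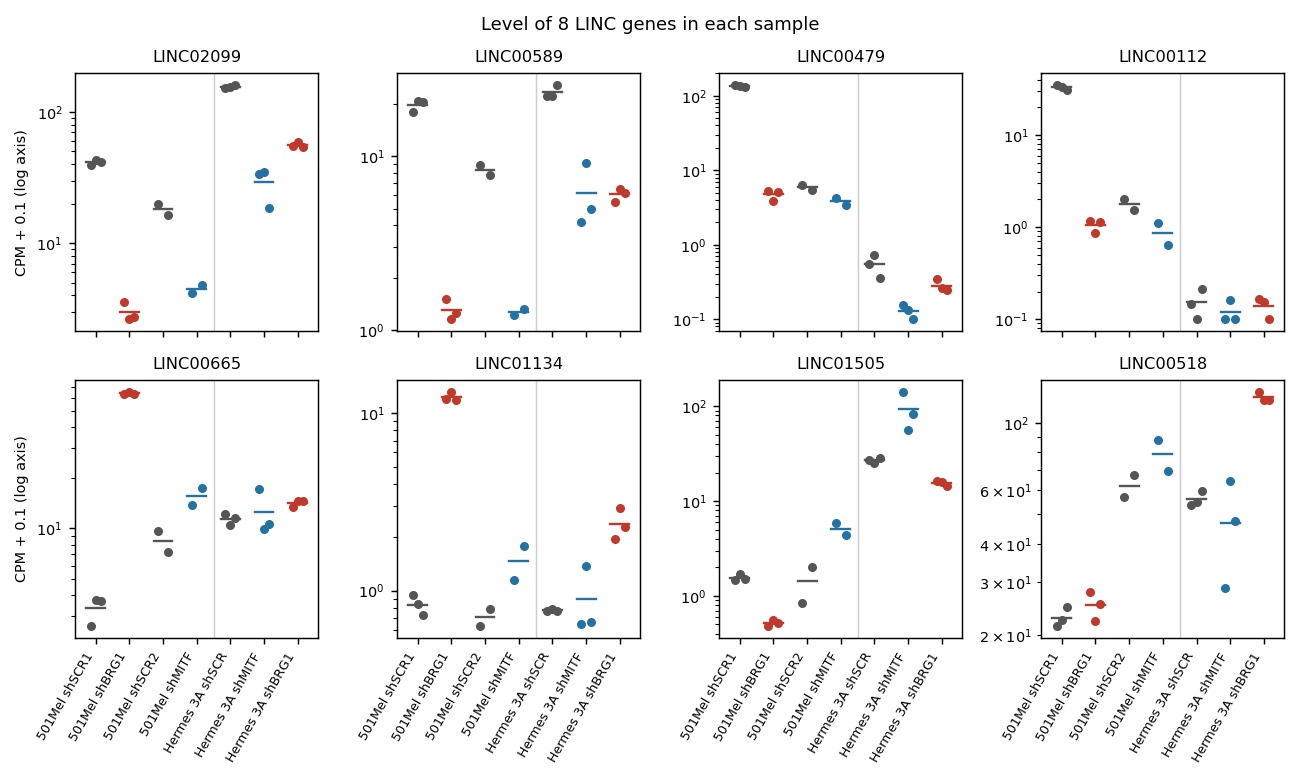
CPM with 0.1 added (log axis) of 8 LINC genes in each sample, by group, with grey for scramble controls, red for shBRG1 and blue for shMITF, and a bar at each group mean. LINC02099 and LINC00589 are lower than their control in all 4 silenced groups, LINC00479 and LINC00112 are high in shSCR1 only, and LINC00665 and LINC01134 stand out in 501Mel shBRG1.

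Fewer members were called on MITF silencing in 501Mel cells, a comparison with 2 samples a group and a wider spread between them. Of 150 tested, 11 were down-regulated and 11 up-regulated, 7.33% each, beside 3.40% and 5.59% of all genes tested and 3.43% and 5.48% of those with a mean count of 50 or more, with a median log2 fold change of 0.23 for the members and 0.01 for all genes. Against shSCR1 and shSCR2 as 1 control 5 members were lower and 3 higher, and without shMITF replicate 2 the number of rises was 4. LINC00520 fell from 85.8 and 114 CPM in shSCR2 to 23.4 and 29.3 CPM, a change of -1.9 (SE 0.17, adjusted p = 0.000389). LINC01679, whose nearest coding gene is SIK1, a salt-inducible kinase, went from 3.5 and 3.14 to 1.07 and 1.28 CPM, a change of -1.48 (SE 0.34, adjusted p = 0.0153). In both genes the shMITF samples lay below the 5 scramble samples of the line.
LINC02223 fell from 199 and 289 to 125 and 112 CPM, LINC02582 from 11.4 and 14.1 to 4.08 and 3.88 CPM and LINC02941 from 5.69 and 10.7 to 2.22 and 1.53 CPM. Their changes of -1.02, -1.66 and -2.11 were not called with pooled scramble controls, where their log2 fold changes were -0.24, -0.86 and -1.58. The shMITF samples of LINC02223 lay above the shSCR1 samples, at 64.8, 74.3 and 74.5 CPM, those of LINC02582 overlapped with shSCR1 and those of LINC02941 lay below both scramble groups. LINC02367 fell from 6.54 and 3.82 to 1.58 and 0.757 CPM, a change of -2.16 (SE 0.44, adjusted p = 0.011), and was at 1.74, 2.47 and 1.94 CPM in shSCR1, just above the shMITF samples. With pooled controls its change was -1.52 and not called. LINC01270, of which 44.2% of exonic bases are shared with LINC01271, fell by 1.42, with an adjusted p of 0.0355 that became 0.156 without shMITF replicate 2 and 0.111 without shSCR2 replicate 1. With pooled controls its adjusted p was 0.0531.

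Among the rises, LINC01505 went from 0.751 and 1.92 CPM in shSCR2 to 5.72 and 4.25 CPM in shMITF, a change of 1.88 (SE 0.42, adjusted p = 0.0143), and LINC00622 from 14 and 19.9 to 35.8 and 47.2 CPM, a change of 1.31 (SE 0.2, adjusted p = 0.00335). In both the silenced samples lay above all 5 scramble samples. LINC02981 rose from 2.5 and 3.65 to 7.01 and 9.88 CPM, by 1.47, and LINC02600, which starts 2958 bp from the adrenoceptor gene ADRA2C, from 0.97 and 0.567 to 3.84 and 7.24 CPM, by 2.91. For LINC02600 the shSCR1 samples, at 2.42, 2.55 and 2.26 CPM, lay between them, and the change was 1.66 (adjusted p = 0.164) with pooled controls.
LINC00173, known as a granulocyte transcript, rose from 1 and 1.18 to 2.73 and 4.95 CPM against shSCR2 by 1.84, but was at 12.7, 12.4 and 13.6 CPM in shSCR1, so that with pooled controls its change was -1.08. LINC01569 likewise changed by 1.33 against shSCR2 and by -0.026 with pooled controls. LINC00205, which starts 152 bp from the O-fucosyltransferase gene POFUT2, rose by 1.4 and LINC00937 by 1.16, and with pooled controls, where neither was called, their changes were 0.57 and 0.21. Without shMITF replicate 2 the adjusted p-values of LINC00173, LINC00205, LINC00937, LINC01569 and LINC02981 were 0.069, 0.0572, 0.309, 0.118 and 0.059. That of LINC00937 was 0.147 without shSCR2 replicate 1, and that of LINC01569 0.0834 and 0.0964 without shSCR2 replicate 1 or 2.

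The 2 knockdowns of 501Mel had separate scramble samples. Of the members tested in both, 29 fell with shBRG1 and 11 with shMITF, and 9 fell in both, which is 31% of the first and 81.8% of the second. Among genes of any kind with a mean count of 50 or more tested in both, the falls in common were 10.1% and 59.7%. These were LINC00520, LINC00589, LINC01366, LINC01679, LINC02099, LINC02223, LINC02582, LINC02941 and LINC02982. LINC00173 and LINC01011 rose in both, 4.26% of the 47 rises with shBRG1 and 18.2% of the 11 with shMITF (16.4% and 35.8% for genes of any kind), but with pooled scramble controls LINC00173 was not called with shBRG1 (1.7, adjusted p = 0.106). LINC01011 reached the count minimum only through 501Mel shBRG1. LINC00937 and LINC01505 fell with shBRG1 and rose with shMITF: LINC01505 went to 0.381, 0.453 and 0.419 CPM in shBRG1 from 1.36, 1.61 and 1.4 CPM in shSCR1, a change of -1.85 (SE 0.2, adjusted p = 1.4e-08), and LINC00937 from 5.74, 5.87 and 5.98 to 1.19, 1.36 and 1.26 CPM, a change of -2.25 (SE 0.12, adjusted p = 1.8e-14). No member rose with shBRG1 and fell with shMITF.

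In Hermes 3A cells shBRG1 silencing down-regulated 7 and up-regulated 11 of 133 members tested, 5.26% and 8.27%, beside 3.47% and 5.78% of all genes tested and 2.92% and 3.83% of those with a mean count of 50 or more. The median log2 fold change was 0.17 for the members and 0.01 for all genes. LINC00518 rose from 53.6, 54.8 and 59.5 CPM in shSCR to 127, 119 and 119 CPM, a change of 1.1 (SE 0.05, adjusted p = 1.0e-17), and LINC01134 from 0.667, 0.685 and 0.67 to 1.86, 2.81 and 2.18 CPM, a change of 1.75 (SE 0.22, adjusted p = 1.2e-07). LINC01521, which starts 545 bp from the zinc finger gene PATZ1, rose from 2.02, 1.52 and 1.87 to 5.56, 5.33 and 4.99 CPM, by 1.53. The shBRG1 samples of all 3 genes were above every shSCR sample.
LINC00973 rose by 1.31, LINC00654, which needed these shBRG1 libraries to reach the count minimum, by 1.12, LINC00702 by 1.01 and LINC02615 by 1.01, the last of these from 0.92, 1.07 and 1.29 to 1.97, 2.13 and 2.62 CPM. LINC00324 rose by 1.42, with an adjusted p of 0.00428 that became 0.0558 without shBRG1 replicate 2. Among the falls were LINC02099 and LINC00589, given above, LINC01531 with a change of -2.24 from 0.828, 1.73 and 1.32 to 0.111, 0.393 and 0.288 CPM, and LINC01443, from 5.27, 4.71 and 4.99 to 2.08, 2.56 and 2.54 CPM with a change of -1.07. LINC00479 is at the lower limit in this line, from 0.46, 0.625 and 0.254 to 0.244, 0.161 and 0.144 CPM, and its change of -1.27 (adjusted p = 0.0212) was not called without shBRG1 replicate 2 or 3 or shSCR replicate 1 or 2, with adjusted p-values of 0.0713, 0.0761, 0.0662 and 0.101.

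Both lines had their own controls for shBRG1. Of 130 members tested in both, 24 fell in 501Mel and 7 in Hermes 3A, with 6 in common (25% and 85.7%), and 44 and 11 rose, with 7 in common (15.9% and 63.6%). For genes of any kind with a mean count of 50 or more the shares were 10.2% and 70.4% for falls and 12.7% and 42% for rises. The common falls were LINC00479, LINC00589, LINC01443, LINC01531, LINC02099 and LINC02982, and the common rises LINC00324, LINC00654, LINC00973, LINC01134, LINC01822, LINC02615 and LINC02709. Of these rises, LINC00324, LINC00973, LINC01134, LINC01822 and LINC02709 reached the count minimum only through 501Mel shBRG1, and LINC00654 only through Hermes 3A shBRG1. They had to be high in a group compared here, so the rises in common are a description. The difference between the lines was tested itself, as an interaction. It was called for 65 of 157 members, 29 with a lower and 36 with a higher change in 501Mel, beside 14.9% and 12.0% of all genes tested and 18.0% and 9.42% of those with a mean count of 50 or more. With library sizes in place of TMM scaling these were 24 and 47, the share of positive differences going from 55.4% to 66.2%. For 23 members the mean count fell under 50 without 501Mel shBRG1, a group compared here, so the counts of called differences are a description. No count without such members was made for this difference.
LINC00665 was at 12.1, 10.3 and 11.5 CPM in Hermes 3A shSCR and 13.3, 14.4 and 14.5 CPM in shBRG1, so that its rise in 501Mel exceeded that in Hermes 3A by 3.94 (SE 0.12, adjusted p = 3.6e-26) on the log2 scale. LINC03048 was at 76.3, 80.7 and 73.6 and 93.6, 97.1 and 101 CPM in the same groups, a difference between the lines of -3.57 (SE 0.08, adjusted p = 1.0e-29). LINC02941 fell in 501Mel, from 4.28, 3.38 and 4.09 to 1.89, 1.85 and 1.5 CPM, and rose in Hermes 3A, from 0.069, 0.0596 and 0.208 to 0.953, 1.02 and 0.696 CPM, the only member called in opposite directions by shBRG1, with a difference of -4.15 (SE 0.39, adjusted p = 1.0e-11). LINC01679 fell in 501Mel, from 4.32, 4.36 and 3.97 to 1.76, 1.68 and 1.73 CPM, and was at 11.7, 11 and 9.6 CPM in Hermes 3A shSCR and 21.1, 18.4 and 20.7 CPM in shBRG1, higher but under 2-fold, a difference of -2.25 (SE 0.14, adjusted p = 1.9e-16). The common falls LINC02099 and LINC00589 fell further in 501Mel, with differences of -2.42 and -2.1. The melanocyte markers moved with this difference: TYRP1, for one, fell by 4.04 in 501Mel and 1.23 in Hermes 3A, and their part in it was not tested.

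**Figure D4:**
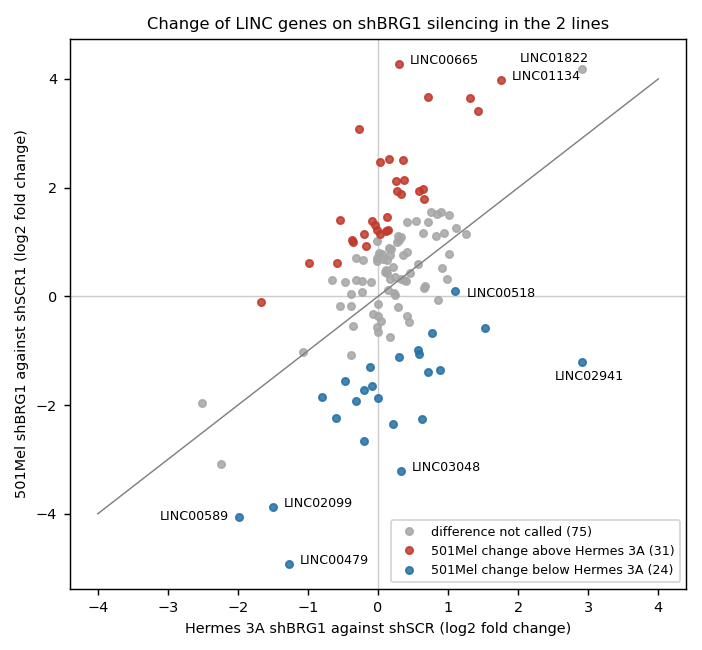
Log2 fold change on shBRG1 silencing in Hermes 3A (horizontal axis) and 501Mel (vertical axis) of the 130 LINC genes tested in both, with the line of equality. Grey points are 75 genes whose difference between the lines was not called, red points 31 with a higher and blue points 24 with a lower change in 501Mel, and the vertical spread, from -4.92 to 4.27, is wider than the horizontal one, from -2.51 to 2.91.

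MITF silencing in Hermes 3A cells down-regulated 11 and up-regulated 3 of 126 members tested, 8.73% and 2.38%, beside 4.04% and 3.35% of all genes tested and 4.03% and 3.02% of those with a mean count of 50 or more. The median log2 fold change was -0.06 for the members and 0.05 for all genes. This group had the widest spread between replicates, and the number of falls was 5, 4 and 7 without shSCR replicate 1, 2 and 3, while 7 members rose without shMITF replicate 1. LINC02099, LINC00589 and LINC01679 fell whichever library was left out. LINC01679 went from 11.7, 11 and 9.6 CPM in shSCR to 4.39, 3.96 and 4.65 CPM, a change of -1.29 (SE 0.18, adjusted p = 0.00341) without overlap.
LINC00520 fell from 88, 93.1 and 93.2 to 30, 50.7 and 23.5 CPM, a change of -1.37 (SE 0.26, adjusted p = 0.0106), with an adjusted p of 0.0517 without shSCR replicate 2. LINC00504 fell by 1.25, LINC00968, which needed the shSCR libraries to reach the count minimum, by 1.93, LINC01010 by 1.1 and LINC01537 by 2.25, and in these 4 the adjusted p was over 0.05 when any 1 shSCR replicate was left out, at 0.0543 to 0.108. For LINC00968 it was also 0.0596 and 0.0758 without shMITF replicate 2 or 3. LINC01293 fell from 4.74, 5.18 and 4.27 to 1.64, 2.14 and 1.24 CPM, by 1.47, with an adjusted p of 0.0501 and 0.0609 without shSCR replicate 1 or 2. The silenced samples of these 6 genes were all below the shSCR samples.

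The rises were LINC01505, LINC00622 and LINC01963. LINC01505, high in this line, went from 27.3, 24.8 and 28.2 CPM in shSCR to 142, 56 and 82.2 CPM in shMITF, a change of 1.83 (SE 0.3, adjusted p = 0.00578), and was at 16.3, 15.9 and 14.4 CPM in shBRG1, a change of -0.8 that is under 2-fold. LINC01963 rose from 7.11, 6.58 and 7.06 to 14, 18.0 and 12.8 CPM, a change of 1.13 (SE 0.19, adjusted p = 0.00597). LINC00622 rose from 3.84, 2.65 and 3.16 to 25.3, 7.67 and 6.6 CPM with shMITF replicate 1 far above the others, a change of 2.06 (SE 0.5, adjusted p = 0.0257), and its adjusted p was 0.0799, 0.117 and 0.104 without shSCR replicate 1, 2 and 3. In both lines, each with its own controls, shMITF lowered LINC00520, LINC00589, LINC01366, LINC01679 and LINC02099 (62.5% of the 8 falls in 501Mel and 50% of the 10 in Hermes 3A among 119 members tested in both) and raised LINC00622 and LINC01505 (20% of 10 and 66.7% of 3). For genes of any kind with a mean count of 50 or more the shares were 35.5% and 29.5% for falls and 18.5% and 36.8% for rises. The difference between the lines was called for 2 members, LINC02981 and LINC00698, beside 0.643% of all genes lower and 2.00% higher in 501Mel (0.847% and 2.60% of those with a mean count of 50 or more). It was 0 of 156 members without shSCR2 replicate 1 or 2, 501Mel shMITF replicate 2 or Hermes 3A shSCR replicate 1 or 2, 1 without Hermes 3A shSCR replicate 3, and 7 without Hermes 3A shMITF replicate 1 or 2.

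**Figure D5:**
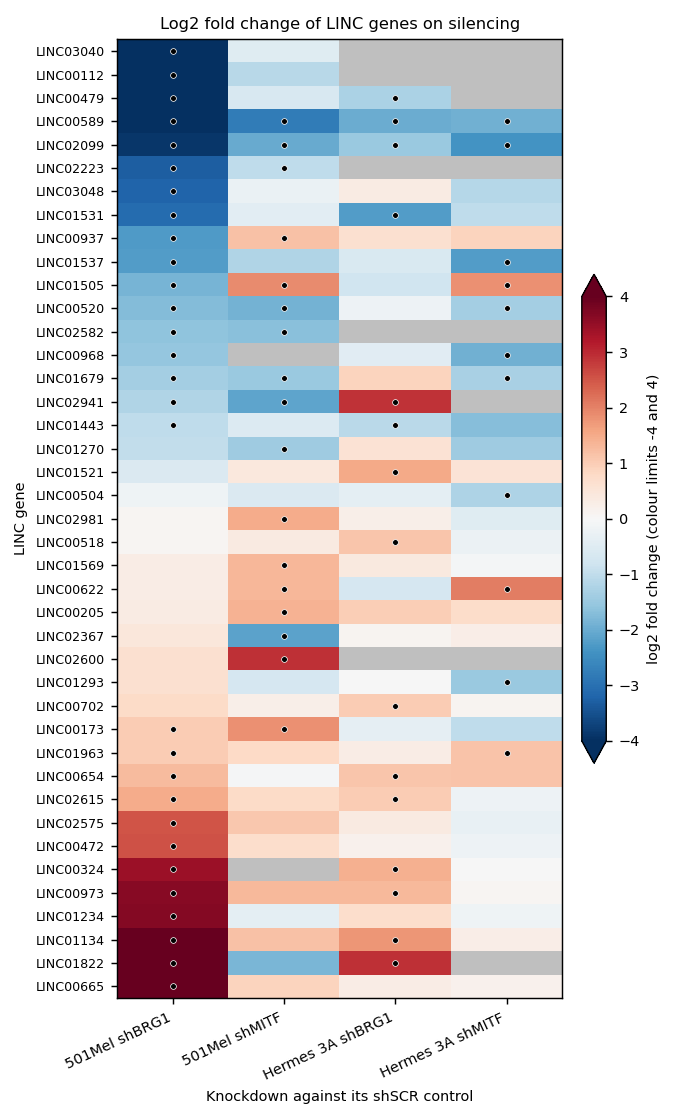
Log2 fold change (colour, limits -4 and 4) of the 41 LINC genes with the largest called changes in a knockdown comparison (rows, ordered by 501Mel shBRG1) in the 4 comparisons (columns), with a dot where a change was called and grey where a gene was not tested. LINC00589 and LINC02099 carry a dot in all 4 columns, and the first column holds the deepest colours.

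Over the 4 knockdown comparisons 61 members were called in none, 68 in 1, 20 in 2, 6 in 3 and 2 in 4, which is 38.9%, 43.3%, 12.7%, 3.82% and 1.27%. For all 14169 genes with a mean count of 50 or more the shares were 60.2%, 28.9%, 8.02%, 2.27% and 0.649%, and these too were selected on the libraries compared. The 2 Hermes 3A comparisons share their shSCR samples, so their calls are not independent of each other. Those called in 3 were LINC00520, LINC01366, LINC01505, LINC01679, LINC02941 and LINC02982. LINC02982, LINC01366 and LINC02709 are named for these counts after their values were seen. LINC02982 was at 22.2, 22.9 and 22.9 CPM in shSCR1 and 20.2 and 21.6 CPM in shSCR2 against 0.437, 0.268 and 0.508 CPM in Hermes 3A shSCR. It fell to 6.08, 5.25 and 6.8 CPM with shBRG1 and to 10.4 and 6.07 CPM with shMITF in 501Mel.

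Among 5 members studied in melanoma or other cancers before, shBRG1 had unlike effects in 501Mel. LINC00518, which starts 15215 bp from TFAP2A, the gene of the AP-2 alpha factor, was at 21.3, 22.3 and 24.7 CPM in shSCR1 and 27.6, 22.2 and 25.2 CPM in shBRG1, an overlap, with a change of 0.09 (SE 0.07, adjusted p = 0.255). TFAP2A itself fell in the same comparison, with a log2 fold change of -1.15 (SE 0.05, adjusted p = 1.1e-16), and in Hermes 3A, where LINC00518 rose, its change was 0.22 (SE 0.04, adjusted p = 1.7e-05). LINC00518 was also at 56.8 and 67.1 CPM in shSCR2, more than 2-fold above shSCR1.
LINC00467, a gene lowered by N-Myc in neuroblastoma, fell from 8.74, 9.93 and 9.04 to 2.57, 2.2 and 2.8 CPM, a change of -1.93 (SE 0.1, adjusted p = 2.7e-14), and changed by -0.11, -0.32 and -0.05 in the other 3 comparisons. LINC01116 rose from 1.74, 1.89 and 2.00 to 4.92, 4.68 and 5.43 CPM, a change of 1.37 (SE 0.12, adjusted p = 2.5e-10), but lay below shSCR2 at 7.48 and 7.14 CPM, and with pooled controls its change was 0.29. LINC00511, studied in breast and lung carcinoma, was at 30.5, 36.2 and 29.7 CPM in shSCR1 and 23.6, 23.6 and 21.6 CPM in shBRG1, lower by under 2-fold, and was higher in 501Mel than in Hermes 3A, with a log2 difference of 1.77 (SE 0.12, adjusted p = 3.3e-09). LINC00520 is given above.

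Of 43 named long noncoding genes without a LINC number, chosen for known roles, 39 were listed for all samples. In 501Mel shBRG1 1 of 36 tested fell and 15 rose, in 501Mel shMITF 0 of 31 fell and 4 rose, in Hermes 3A shBRG1 1 of 32 fell and 2 rose, and in Hermes 3A shMITF 2 of 33 fell and none rose. The fall shared by both shBRG1 comparisons was OIP5-AS1, with -1.62 and -1.14. The snoRNA host genes GAS5 and SNHG1 rose by 1.44 and 1.71 in 501Mel shBRG1 and changed by -0.3 and -0.16 in Hermes 3A. SAMMSON, a melanoma transcript near MITF, was higher in 501Mel than in Hermes 3A by 4.52 and changed by -0.73 with shBRG1, under 2-fold.

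For 65 members the nearest start of a protein-coding gene lies within 50 kb. Across such pairs with both genes tested, the log2 difference between the lines of the member and of its neighbour had a Spearman's rho of 0.55 (n = 49 pairs), against 0.17 over all 123 pairs at any distance. For 501Mel shBRG1 it was 0.17 within 50 kb (n = 47) and 0.27 over all 120 pairs. For the 7 pairs that start within 1 kb on opposite strands it was -0.46 between the lines and 0.89 for 501Mel shBRG1. These are correlations across genes of the same libraries, which are no independent replicates. Of the 4 members within 50 kb of a coding start that fell in 501Mel shBRG1, 2 had a neighbour that fell and 0 one that rose, and of the 17 that rose, 5 had a neighbour that rose and 2 one that fell, beside the 21.3% and 10.5% of protein-coding genes called lower and higher. Of these 17, most had to be high there, since they reached the count minimum only through 501Mel shBRG1. They were LINC00324, LINC00663, LINC01004, LINC01011, LINC01088, LINC01134, LINC02043, LINC02575 and LINC02878. LINC01088 and LINC01134 are among those with a neighbour that rose. A coding gene can be the nearest to more than 1 member, so these pairs are not independent. RIPK4 is nearest to LINC00479 and LINC00112 at over 50 kb, and POLE4 to LINC01291 and LINC01293 within 50 kb.
Of the 7 members that start within 1 kb of a coding gene on the opposite strand, LINC01134 rose together with C1orf174, which changed by 1.43 (SE 0.06, adjusted p = 1.9e-16), and LINC01301 fell together with RAB2A, a small GTPase gene. LINC01301 went from 3.64, 4.17 and 4.12 to 1.94, 1.61 and 2.17 CPM, a change of -1.11, and RAB2A changed by -1.05 (SE 0.05, adjusted p = 1.4e-15). In the other 5 neither gene was called in that comparison. Neither LINC01134 nor LINC01301 shares exonic bases with another gene in the annotation. These pairs were chosen after their values were seen.

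In the promoter windows of the 94 members with one, CACGTG was found in 9.57% (7.44% of all 27305 RefSeq promoters), TCATGTG in 6.38% (2.99%), TGANTCA in 12.8% (7.76%), the SOX-type sequence AACAAAG in 5.32% (5.28%) and GCCNNNGGC in 27.7% (23%), on either strand. The median GC content was 54.7% for the members and 58.3% for all promoters, with a median of 8.5 and 14 CpG per window. A match is a description of letters, and 63 members had no window.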

How the data were processed

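Total RNA of lentivirally infected, puromycin-selected 501Mel and Hermes 3A cells was depleted of ribosomal RNA and sequenced, in 19 samples. The authors deposited raw read counts per gene for each sample, not normalised, and their processing notes name hg19, CASAVA 1.8, TopHat 1.4.1 and Bowtie 0.12.7. The counting tool, annotation release and strand setting are not given in the sources used here. The LINC genes, gene lists and tests were chosen with earlier results of these data known. Counts were tested with edgeR 4.0.16 in R 4.3.3 (TMM scaling, filterByExpr, robust quasi-likelihood test) over all genes, each knockdown against its own scramble group, the scramble groups between lines, and the difference between lines as an interaction, with Benjamini-Hochberg adjustment. The p-values called had to be under 0.05 with a log2 fold change beyond 1. CPM values were TMM-scaled over all 19 samples, so their ratios differ slightly from the fitted fold changes. Levels per kb used the exons of GENCODE 29 (GRCh38), matched by Ensembl identifier. Named genes were the up to 8 largest calls in each direction of each comparison among members with at least 100 mean raw counts in the higher group and no overlap, the 6 highest per kb in each line, and 5 chosen for earlier study. Others, such as LINC00174, LINC01011, LINC01301, LINC01311 and LINC03011, were chosen after their values were seen. Alternatives were DESeq2 1.42.0, library sizes, no filter, pooled scramble controls, all groups of a line in 1 fit, the replicate block, leaving out each sample and, added after seeing the data, counting only members at the minimum without either group compared. The fits were tested on simulated data. Same-numbered replicates did not pair in 501Mel shBRG1, where the correlation of their deviations averaged 0.033, or with shBRG1 and shMITF in Hermes 3A, at 0.080 and -0.054. In 501Mel shMITF, which has 2 pairs, each sample correlated best with its own number, at 0.055 against -0.055 for the other number. No samples were identical. Floors and intervals cover counting error only.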

Additional observations from a re-analysis of the deposited data

Results flagged for a closer look

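The change on BRG1 silencing differed between 501Mel and Hermes 3A for 65 LINC genes by the interaction test of edgeR with Benjamini-Hochberg adjustment, which is why they are listed here. Values are the log2 fold change in 501Mel minus that in Hermes 3A. Among members tested in each line's own comparison and with a mean of 100 or more raw counts in at least 1 of the 4 groups, the 4 largest called differences each way follow. The negative ones were -4.15 for LINC02941, -3.69 for LINC00479, -3.57 for LINC03048 and -2.92 for LINC00937. For LINC00479 the level in Hermes 3A was under 1 CPM in shSCR and shBRG1, and its level in 501Mel differed between the scramble groups. The positive ones were 3.94 for LINC00665, 3.31 for LINC00992, 2.92 for LINC01234 and 2.40 for LINC01311. LINC01311 rose from 3.88, 4.85 and 4.23 CPM in shSCR1 to 25.6, 26.4 and 22.6 CPM in 501Mel shBRG1 and was at 0.805, 1.31 and 0.554 CPM in Hermes 3A shSCR and 1.26, 0.733 and 0.720 CPM in Hermes 3A shBRG1. LINC00992 was at or near 0 in the 501Mel scramble samples, with 0.331, 0.269 and 0.209 CPM in shBRG1. Larger called differences outside that choice, named after their values were seen, were -5.42 for LINC00648, -5.03 for LINC02582, -4.74 for LINC00112, -3.91 for LINC02223 and -3.43 for LINC01605, which were at 0.168 CPM or less in Hermes 3A shSCR and shBRG1, and 3.73 for LINC02735, 3.25 for LINC00896 and 2.41 for LINC02327. LINC02735 was at 0.116 CPM or less in 501Mel shSCR1 and shBRG1 and LINC00896 and LINC02327 at 0.207 CPM or less in Hermes 3A shSCR and shBRG1, so the size of these differences rests on few reads in 1 line. LINC00112 and LINC01605 reached the count minimum only through shSCR1 and LINC00896 only through 501Mel shBRG1, so their differences are a description.

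The change on MITF silencing differed between the lines for 2 LINC genes by the same test. One was LINC02981, with a difference of 1.96, at 4.46, 4.23 and 4.25 CPM in Hermes 3A shSCR and 2.53, 2.52 and 4.01 CPM in Hermes 3A shMITF. The other was LINC00698, with 5.00 (SE 0.99, adjusted p = 0.0252), at 44.8 and 47.1 CPM in shSCR2, 41.3 and 33.8 CPM in 501Mel shMITF, 0.0920, 0.149 and 0.115 CPM in Hermes 3A shSCR and 0, 0 and 0 CPM in Hermes 3A shMITF. No read of LINC00698 was counted in the Hermes 3A shMITF libraries, so the size of its fitted difference depends on the prior count.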

How the results depend on the processing

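In 501Mel and Hermes 3A shBRG1 and between the lines, every alternative but 1 kept the counts of LINC genes called within 1.5 times the reported ones. The exception was chosen after seeing the data: among members whose mean stayed at 50 counts or more without either group compared, 32 rather than 50 rose in 501Mel shBRG1. These were 25.2% of 127 members tested rather than 32.5% of 154. The members left out were those that needed 1 of the 2 groups to reach the minimum. In the other 3 knockdown comparisons leaving such members out moved no count beyond 1.5 times. No such count was made between the lines, for their levels or for the difference in change. Leaving out 1 library gave 29 to 31 falls and 45 to 50 rises in 501Mel shBRG1, 6 to 7 and 10 to 14 in Hermes 3A shBRG1, 64 to 66 higher and 29 to 32 lower in 501Mel against Hermes 3A, and 60 to 68 differences between the lines with shBRG1. The shMITF counts moved. In 501Mel shMITF, 5 fell and 3 rose with pooled scramble controls and 19 fell and 19 rose with all groups of the line in 1 fit, and leaving out 1 library gave 9 to 13 falls and 4 to 16 rises, with 4 without shMITF replicate 2. In Hermes 3A shMITF leaving out 1 library gave 4 to 14 falls, with 5, 4 and 7 without shSCR replicate 1, 2 and 3, and 2 to 7 rises, with 7 without shMITF replicate 1. The difference between the lines with shMITF was called for 9 LINC genes with DESeq2 and 7 with no filter, and for 0 to 7 with 1 library left out. It was 0 without 501Mel shMITF replicate 2, 501Mel shSCR2 replicate 1 or 2, or Hermes 3A shSCR replicate 1 or 2, 1 without Hermes 3A shSCR replicate 3, and 7 without Hermes 3A shMITF replicate 1 or 2. The cause was not tested.

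MITF itself changed by -0.58 in 501Mel shMITF with pooled scramble controls. In Hermes 3A shMITF its change was -1.06 to -0.72 with 1 library left out. Its adjusted p was no longer under 0.05 without shMITF replicate 3 and shSCR replicate 1, 2 and 3, with changes of -0.81, -0.90, -0.88 and -0.82. With pooled scramble controls 3 values turned their direction: LINC00173 and LINC01569 with shMITF, at -1.08 and -0.026, and LINC01963 with shBRG1 in 501Mel, at -0.021. For 6 further named genes with shBRG1 and 8 with shMITF in 501Mel the adjusted p was no longer under 0.05 with these controls. LINC01443 with shBRG1 kept an adjusted p of 0.047 but changed by only -0.70, so its call was lost too. The replicate block gave 16 falls and 16 rises in 501Mel shMITF, 30 and 50 in 501Mel shBRG1 and 3 differences between the lines with shMITF. With DESeq2, library sizes and the replicate block the named calls of the 4 knockdown comparisons all kept their direction and an adjusted p under 0.05. Whether each change stayed beyond 2-fold was not part of that check. Depth limits genes at a few reads, such as LINC02223 with 1 read over the 3 Hermes 3A shSCR libraries, for which the ratio between the lines was 18980 with a 95% exact Poisson interval of 3407 to 749700.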
